A study of Mus musculus with 2 samples.

Results

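Mir142hg, Tspoap1, Supt4a and Mks1 are 4 transcripts of the Mir142 locus on mouse chromosome 11, out of 32285 features counted in each library. Their levels were followed in LSK cells of mouse bone marrow, which lack lineage markers, carry Sca-1 and c-Kit and include the stem and early progenitor cells. The 4 transcripts were chosen from the summed levels measured in these same libraries, so every difference between the libraries given for them is a description. One library was made from miR-142 WT CML mice (miR-142+/+, BCR-ABL+) and the other from miR-142 KO CML mice (miR-142-/-, BCR-ABL+), at 8 to 10 weeks of age in both. All mice were C57BL/6 and carried SCLtTA/BCR-ABL, in which the SCL promoter drives the tetracycline transactivator, and BCR-ABL had been switched on for 2 weeks by withdrawing tetracycline. The miR-142 knockout was carried in the germline. There was 1 library per group, and neither the number of mice behind a library nor the structure of the deleted allele is given in the sources used here. Genotype, library and any batch thus cannot be told apart, no test was run, no p-value is given, and intervals are exact 95% intervals for counting error only, with no part for variation from mouse to mouse.

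A microRNA is cut from a longer RNA polymerase II transcript by the Drosha and DGCR8 complex in the nucleus and by Dicer in the cytoplasm, and the mature strand then guides an Argonaute protein to matching messenger RNAs, which are repressed. miR-142 is made almost only in cells of blood origin and both arms of its hairpin are used. Mir142hg is the noncoding transcript that hosts it. Of the genes around it, Tspoap1 encodes a large scaffold protein of the RIM-binding family, named for its interaction with the mitochondrial protein TSPO and studied mainly at nerve terminals. Supt4a encodes the small subunit of DSIF, a factor that controls the pausing and elongation of RNA polymerase II. Mks1 encodes a protein of the transition zone at the base of the primary cilium and is one of the genes mutated in Meckel syndrome.

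The mature strands of the locus are shown because the knockout was aimed at them, with the seed (bases 2 to 8) in capitals. They are RefSeq records on GRCm38.p6, and the 3 seeds differ from each other. miR-142b is read from the minus strand, opposite miR-142a-3p.
mmu-miR-142a-5p: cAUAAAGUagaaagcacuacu
mmu-miR-142a-3p: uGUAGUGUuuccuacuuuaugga
mmu-miR-142b: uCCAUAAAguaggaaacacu

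The precursor of 64 bases lies at chr11:87756864-87756927 on the plus strand. It is printed with both miR-142a arms in capitals.
Mir142 hairpin: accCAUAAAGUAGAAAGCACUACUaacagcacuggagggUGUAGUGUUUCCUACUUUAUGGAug

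In the annotation Mir142hg had 2 exons, at chr11:87755577-87755613 and chr11:87757039-87757270, and the precursor lay in the intron of 1425 bases between them, ending 112 bases before the second exon. The spliced host transcript of 269 bases is shown because it, and not the hairpin, is what a 3′ library with poly(A) priming can count. The last AATAAA, the hexamer that directs 3′ end formation, is in capitals and ended 14 bases before the end of the transcript.
Mir142hg spliced transcript: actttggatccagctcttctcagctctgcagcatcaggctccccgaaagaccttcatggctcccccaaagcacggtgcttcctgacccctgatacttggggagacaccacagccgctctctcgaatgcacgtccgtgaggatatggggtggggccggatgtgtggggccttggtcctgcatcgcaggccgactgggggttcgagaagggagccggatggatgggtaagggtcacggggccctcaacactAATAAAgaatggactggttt

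All 4 transcripts run on the plus strand. Supt4a, at chr11:87737552-87743623, ended 13.2 kb upstream of the precursor. Tspoap1, at chr11:87760541-87785928, started 3614 bp downstream of it, and the RefSeq model of Tspoap1 started nearer, 1267 bp downstream. Mks1, at chr11:87853215-87863803, started 96.3 kb downstream. Positions are those of GRCm38, in the GENCODE annotation except where RefSeq is named.

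**Figure D1:**
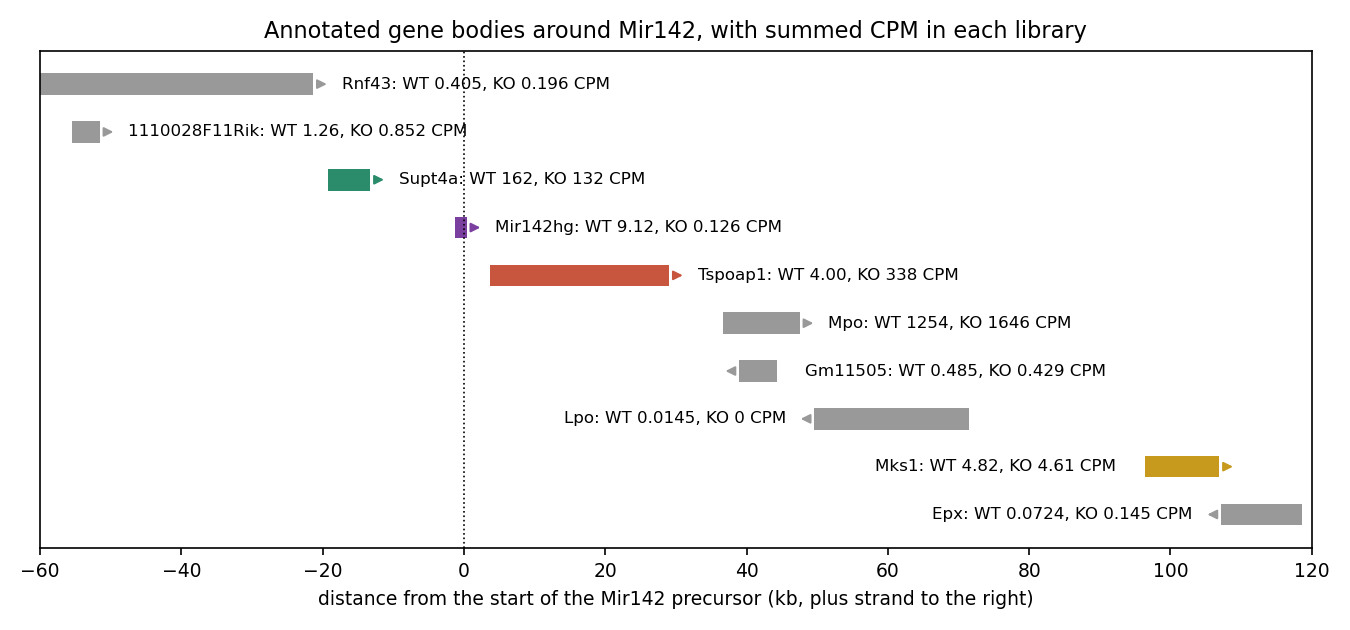
Map of the annotated gene bodies around Mir142, with distance from the start of the precursor in kb on the horizontal axis, arrows for the strand, and the summed CPM of each gene in the library of WT and of KO mice beside it. Mir142hg stands at 9.12 CPM (WT) and 0.126 CPM (KO), and its downstream neighbour Tspoap1 at 4.0 and 338 CPM.

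Barcodes with at least 8000 unique molecular identifiers (UMIs) and under 10% mitochondrial UMIs were taken as cells. This gave 5363 miR-142 WT CML cells with a median of 19443 UMIs and 5458 miR-142 KO CML cells with a median of 24181.5 UMIs. The libraries shared 4 cell barcodes. A level is the summed UMIs of a transcript over all UMIs of the same cells, in CPM. A share of cells is the share with at least 1 UMI once every cell was reduced by random thinning to 8000 UMIs, because the libraries differ in depth. Of the sort markers, Kit was seen in 51.0% of WT and 41.7% of KO thinned cells and Ly6a (Sca-1) in 49.5% and 51.9%, while the lineage genes Cd3e, Ms4a1 and Ly6g were each seen in at most 0.0550% of cells of either library and Itgam in 6.79% and 9.69%.

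Mir142hg (ENSMUSG00000084796), the host transcript, was nearly lost from the miR-142 KO CML library. It had 1260 UMIs in WT (9.12 CPM, 95% interval 8.62 to 9.64) and 20 UMIs in KO (0.126 CPM, 0.0771 to 0.195). The level in WT was 72.2-fold that in KO (46.6 to 119), a log2 ratio (KO over WT) of -6.17 (-6.89 to -5.54). Even in WT the transcript was sparse. It was seen in 9.16% of thinned WT cells (8.40% to 9.96%, 491 cells) and in 0.128% of thinned KO cells (0.0516% to 0.264%, 7 cells). Without thinning, 1023 WT cells had it, of which 822 had 1 UMI, 171 had 2 UMIs and 30 had 3 or more, with 5 UMIs in the highest. Whether the counted exons lie inside the deletion is not given in the sources used here, and mature miR-142 was not measured by this assay.

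The 20 UMIs that remained in KO lay in 18 cells, and no cell held more than 2. None of the 18 barcodes had over 300 UMIs in the WT library. Of these cells 9 were in the granule-high gate described below, 5 were ungated, 3 were monocyte-leaning and 1 was lymphoid-primed. Of all KO cells these groups held 25.9%, 32.9%, 9.18% and 7.57% in the same order, and the granule-high KO cells had a median of 44282 UMIs. The median depth of the 18 cells was 40427 UMIs, above the 24181.5 UMIs of the library. Tspoap1 was present in 17 of the 18, as in nearly all KO cells.

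Tspoap1 (ENSMUSG00000034156), the RIM-binding scaffold, went the other way. It had 553 UMIs in WT (4.0 CPM, 3.68 to 4.35) and 53561 UMIs in KO (338 CPM, 335 to 341), an 84.5-fold higher level (77.7 to 92.0) and a log2 ratio of 6.40 (6.28 to 6.52). The counts per cell overlapped between the libraries only from 0 to 4 UMIs. A KO cell held a median of 7 UMIs (quartiles 4 and 13, highest 83), and 37.8% of KO cells held 10 or more. No WT cell held more than 4. After thinning it was seen in 89.8% of KO cells (89.0% to 90.6%) and in 2.07% of WT cells (1.71% to 2.49%). Without thinning, 85 KO cells (1.56%) had none.

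**Figure D2:**
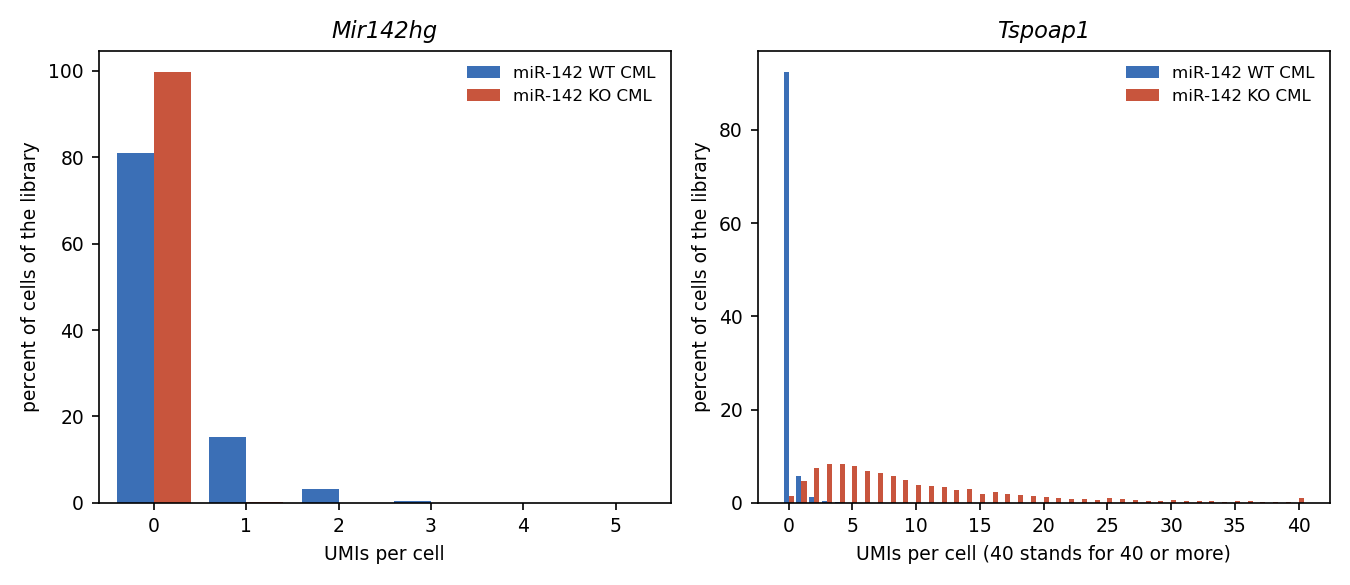
Percent of cells of each library (vertical axis) by the number of unthinned UMIs in the cell (horizontal axis) for Mir142hg, left, and Tspoap1, right, with miR-142 WT CML in blue and miR-142 KO CML in red; 40 stands for 40 or more UMIs. Mir142hg appears as a short tail of 1 to 5 UMIs in WT, whereas Tspoap1 moves from 92.3% of WT cells at 0 UMIs to a skewed hump in KO with its top at 4 UMIs and a median of 7 UMIs.

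Tspoap1 varied somewhat more among single KO cells than most genes of like mean. In thinned cells its variance was 1.41 times its mean, beside a median of 1.26 over the 185 genes nearest to it in mean, and 131 of those genes had a smaller ratio. Supt4a, measured the same way in KO, had a variance of 1.07 times its mean, and 155 of 472 genes of like mean had a smaller ratio. In WT its variance was 1.03 times its mean, and 38 of 408 genes of like mean had a smaller ratio.

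Supt4a (ENSMUSG00000020485), the DSIF subunit, was seen in most cells of both libraries and was slightly lower in KO. It had 22435 UMIs in WT (162 CPM) and 20895 UMIs in KO (132 CPM), a log2 ratio of -0.30 (-0.33 to -0.27). It was seen in 72.9% of WT and 66.3% of KO thinned cells. A ratio of this size was common in the comparison, since 29.5% of the genes compared lay as far apart or farther.

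Mks1 (ENSMUSG00000034121), the cilium gene, was sparse and did not differ beyond counting error. It had 666 UMIs in WT (4.82 CPM) and 731 UMIs in KO (4.61 CPM), a log2 ratio of -0.06 with an interval from -0.22 to 0.09. It was seen in 3.60% of WT and 3.39% of KO thinned cells.

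Of the 4 transcripts, Tspoap1 and Supt4a reached the floor of a mean of 10 CPM over both libraries, and Mir142hg and Mks1, at means of 4.62 and 4.72 CPM, did not. Past the floor, 7483 genes were compared, with a median log2 ratio of -0.08. Of these genes 1.02% were at least 2-fold higher and 1.18% at least 2-fold lower in KO. Tspoap1 was 1 of the 76 higher genes and had the highest ratio of all. Among the 13148 genes with at least 100 UMIs in both libraries together, where 2.3% were at least 2-fold higher and 6.64% at least 2-fold lower, Tspoap1 ranked 3 from the top and Mir142hg 22 from the bottom. These contrasts chose the members, so the ranks only place them.

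**Figure D3:**
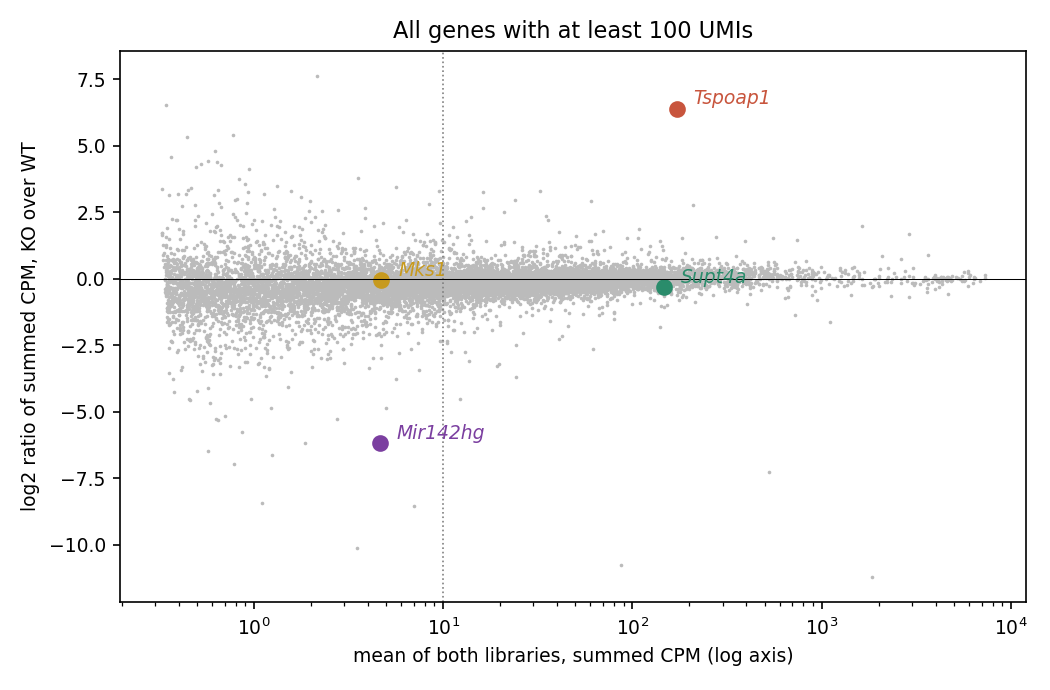
Log2 ratio of summed CPM, miR-142 KO CML over miR-142 WT CML, against the mean of both libraries (log axis) for genes with at least 100 UMIs in all and a UMI in each library, 1 grey point per gene, with the 4 members in colour and the floor of 10 CPM dotted. Tspoap1 at 6.40 stands far above the genes of similar level, Mir142hg at -6.17 lies below most but not all genes, and Supt4a at -0.30 and Mks1 at -0.06 lie inside the cloud.

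To see whether the levels held across cell types, cells were gated on marker lists. A cell entered the gate whose summed markers stood highest, if they reached at least 2 times the mean of both libraries with at least 2 markers present in the thinned cell, and 39.4% of WT and 32.9% of KO cells stayed ungated. Gates are ranges of a score and not cell types. Of the HSC-like cells, 296 of 1078 in WT and 110 of 295 in KO lay near the threshold, and over all gates 16% of WT and 19.1% of KO cells passed more than 1 list. Other lists were raised inside some gates. In the gate led by basophil and mast cell genes the median of the innate lymphoid list stood at 4.31 times the reference in WT and 7.77 times in KO, that of the erythroid list at 2.54 times in both, and that of the megakaryocyte list at 2.46 times in KO. The leading genes of this gate differed between the libraries and included the basophil genes Prss34 and Mcpt8 in WT and the mast cell genes Mcpt1, Mcpt4 and Cma1 in KO, so its WT and KO values may compare unlike cells. In the erythroid-like gate the HSC list stood at 2.03 times in WT and the megakaryocyte list at 2.46 times in KO. Of its cells, 85 of 135 in WT and 47 of 65 in KO passed more than 1 list. In the WT innate lymphoid-like gate the basophil and mast cell list stood at 7.74 times, beside 0.0551 times in KO. Gate sizes differed between the libraries, with 148 granule-high cells in WT and 1415 in KO. The comparison uses the 8 groups (7 gates and the ungated cells) with at least 50 cells in both. The innate lymphoid-like gate had 30 WT cells, of which 24 passed more than 1 list, and 261 KO cells, of which 145 did. Of the monocyte-leaning cells, 211 of 576 in WT and 247 of 501 in KO passed more than 1 list. The antibody-secreting gate had 36 WT cells and none in KO.

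**Figure D4:**
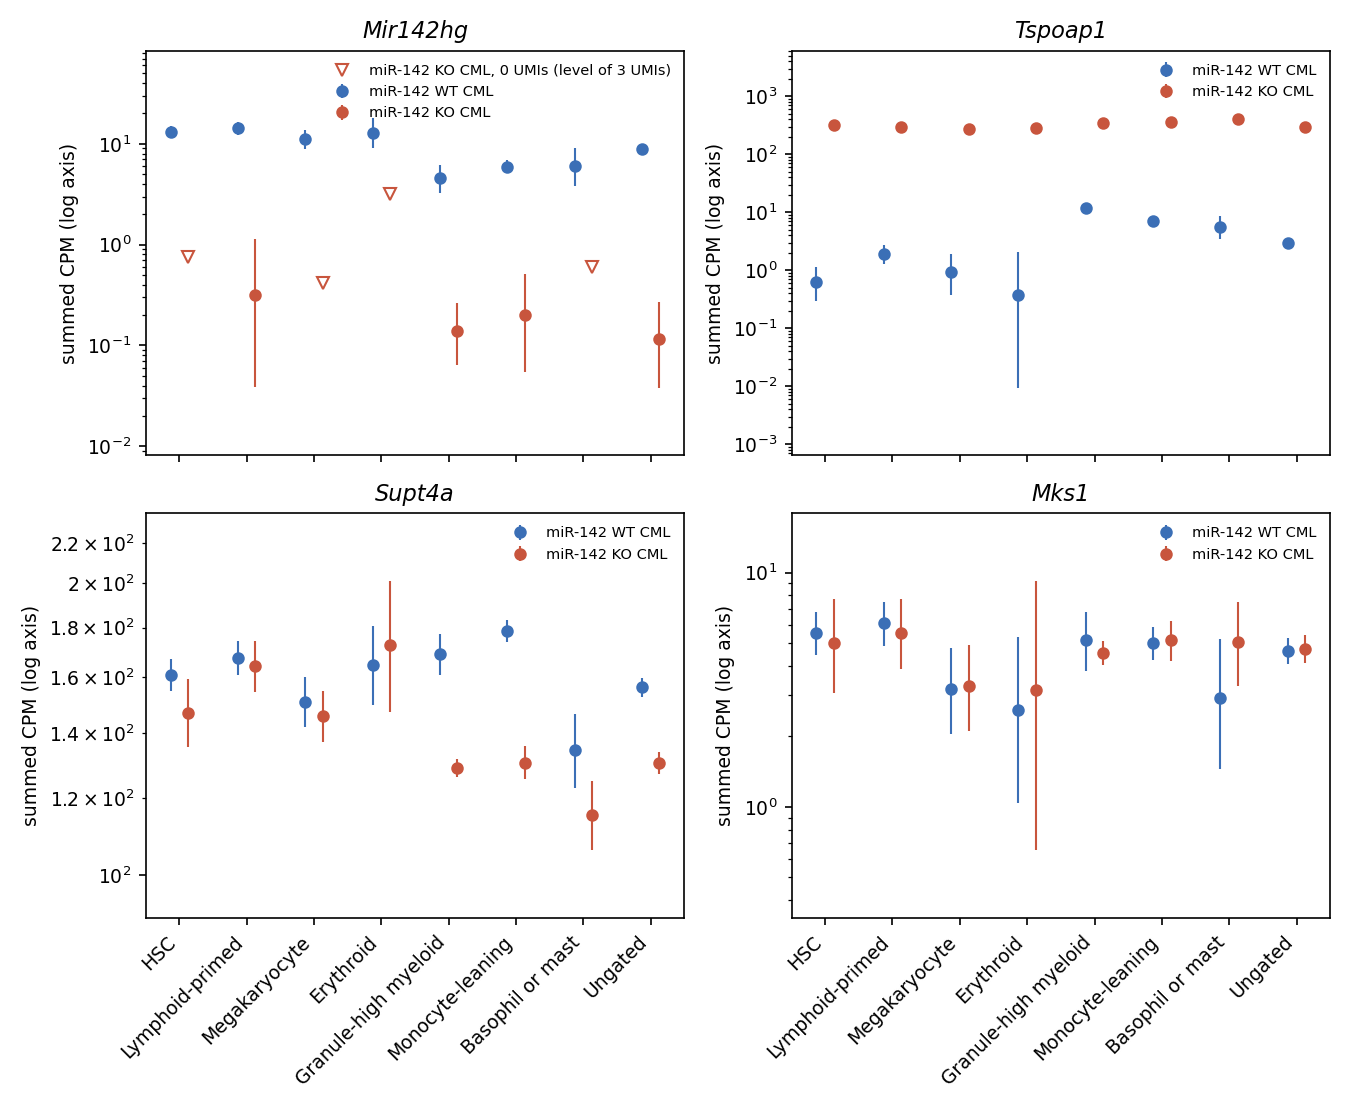
Summed CPM (log axis) of each member in the 8 marker-gated groups, WT in blue and KO in red, with exact 95% Poisson intervals; open triangles mark groups with 0 UMIs, drawn at the level of 3 UMIs. Tspoap1 in KO stays between 272 and 401 CPM while in WT it runs from 0.369 to 11.9 CPM, and Mir142hg in WT is higher in the 4 groups on the left than in the granule-high and monocyte-leaning groups.

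In WT, Mir142hg was higher in the early and the lymphoid-primed groups than in the myeloid ones. From the top it stood at 14.2 CPM in lymphoid-primed cells (12.3 to 16.3), 13.1 CPM in HSC-like cells (11.4 to 15.0), 12.9 CPM in erythroid-like cells (9.0 to 18.0) and 11.2 CPM in megakaryocyte-like cells (8.91 to 13.8). Ungated cells followed at 8.85 CPM, then the basophil or mast group at 6.08 CPM, the monocyte-leaning cells at 5.95 CPM (5.12 to 6.87) and the granule-high cells at 4.53 CPM (3.28 to 6.1). Each neighbouring pair in this order overlapped in its intervals, but each of the upper 4 groups lay above the intervals of the monocyte-leaning and granule-high cells. The highest level was 3.13 times the lowest (2.25 to 4.47). The WT innate lymphoid-like cells held 15 UMIs in 30 cells (28.8 CPM, 16.1 to 47.5) and the antibody-secreting cells 6 UMIs (5.39 CPM).

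In KO, Mir142hg had 0 UMIs in the HSC-like, megakaryocyte-like, erythroid-like and basophil or mast groups and at most 0.317 CPM elsewhere. Against the level that 3 UMIs would give in the KO group, the WT level was at least 17.4-fold higher in HSC-like cells, at least 27.1-fold in megakaryocyte-like cells, at least 10.0-fold in the basophil or mast group and at least 4.09-fold in erythroid-like cells, where KO had 65 cells. These folds take WT counts as exact, and with the error of both libraries the upper ends of the log2 intervals were -3.81, -4.43, -2.91 and -1.66 in the same order. Where KO had UMIs, the log2 ratio was -6.24 in ungated cells (457 and 5 UMIs, -7.87 to -5.01), -5.49 in lymphoid-primed cells (201 and 2 UMIs, -8.54 to -3.61), -5.02 in granule-high cells (43 and 9 UMIs, -6.25 to -3.97) and -4.88 in monocyte-leaning cells (185 and 4 UMIs, -6.77 to -3.50).

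Tspoap1 in WT was higher in the groups where Mir142hg was lower. It was highest in granule-high cells (11.9 CPM, 9.81 to 14.3), next in monocyte-leaning cells (7.10 CPM, 6.20 to 8.10) and in the basophil or mast group (5.55 CPM, 3.44 to 8.48), and stood at 2.94 CPM in ungated and 1.91 CPM in lymphoid-primed cells. Megakaryocyte-like cells held 7 UMIs (0.931 CPM), HSC-like cells 10 UMIs (0.620 CPM) and erythroid-like cells 1 UMI (0.369 CPM). The granule-high level lay above the intervals of every other group. WT barcodes of over 100 and up to 300 UMIs stood at 2.81 CPM (37 UMIs), above the 4 lowest groups, so no order is read among those 4. Over the 8 groups the log2 levels of Mir142hg and Tspoap1 in WT had a Pearson r of -0.94 and a Spearman rho of -0.83, as a description over groups that share 1 library and differ in depth. Both values take in the 4 groups among which no Tspoap1 order is read. They also take in the groups where Mir142hg stood near the level of such barcodes.

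In KO, Tspoap1 was high in every group and the groups differed little. The innate lymphoid-like cells, which were 261 in KO, stood at 481 CPM (465 to 496), the basophil or mast group at 401 CPM (383 to 419), the monocyte-leaning cells at 356 CPM and the granule-high cells at 351 CPM. HSC-like cells stood at 323 CPM (306 to 341), lymphoid-primed and ungated cells at 298 CPM each, erythroid-like cells at 282 CPM and megakaryocyte-like cells at 272 CPM (260 to 284). Monocyte-leaning and granule-high cells overlapped in their intervals, as did each neighbouring pair from HSC-like cells down, whereas innate lymphoid-like cells were apart from the basophil or mast group, that group from monocyte-leaning cells, and granule-high from HSC-like cells. In the 8 compared groups the highest level was 1.48 times the lowest (1.39 to 1.57), and 19.3% of the 4088 genes that could be ranked this way in KO had a smaller ratio. Thinned cells with the transcript made up 83.1% of erythroid-like and 93.6% of HSC-like KO cells, the lowest and the highest of the 8 groups.

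The ratio of Tspoap1 between the libraries was widest where its WT level was lowest, which follows from KO levels that differ little over the groups. The log2 ratio ran from 4.88 (4.61 to 5.16) in granule-high cells and 5.65 in monocyte-leaning cells to 9.03 (8.14 to 10.09) in HSC-like cells and 9.58 in erythroid-like cells, which rests on 1 WT UMI. It was positive beyond its interval in 8 of 8 groups. Over these groups the WT and KO levels of Tspoap1 had a Pearson r of 0.74 and a Spearman rho of 0.69, as a description.

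Supt4a varied little over the groups and its small difference lay in part of them. In WT it ran from 135 CPM in the basophil or mast group to 178 CPM in monocyte-leaning cells, a ratio of 1.33 (1.21 to 1.46), and 7.42% of 6833 genes had a smaller ratio. It was lower in KO beyond the interval in 4 of 8 groups, the monocyte-leaning (-0.45), granule-high (-0.39), ungated (-0.26) and basophil or mast (-0.22) groups by log2 ratio. In HSC-like, lymphoid-primed, megakaryocyte-like and erythroid-like cells the ratios were -0.13, -0.03, -0.05 and 0.07, and their intervals reached 0. Mks1 differed beyond its interval in 0 of 8 groups, with log2 ratios from -0.19 to 0.80, and counts of 3 UMIs in erythroid-like KO cells and 7 UMIs in erythroid-like WT cells at the low end.

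The WT level of Mir142hg also went with depth and with the cell cycle. It was 18.1 CPM in WT cells of 8000 to under 16000 UMIs, 9.39 CPM in those of 16000 to under 32000 UMIs and 5.82 CPM in those of 32000 UMIs or more. In WT cells with neither S nor G2/M genes raised it was 16.1 CPM (14.6 to 17.7), beside 7.22 CPM in cells led by S phase genes and 7.78 CPM in cells led by G2/M genes. The HSC-like and granule-high gates differed in depth as well, with medians of 12581 and 62502.5 UMIs in WT, and the parts of cell type, cell cycle and depth cannot be told apart here. Within cells outside S and G2/M phase alone, 5 groups had enough cells. Among them the highest Mir142hg level was 3.13 times the lowest, which rested on 10 UMIs. Fewer groups and sparse counts keep this ratio from being set beside that of the 8 groups.

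Tspoap1 did not follow that course. In KO it was 346, 297 and 354 CPM in the same 3 depth classes, and 333 CPM in cells outside S and G2/M phase, 326 CPM in those led by S phase genes and 353 CPM in those led by G2/M genes. In WT it was 1.91, 1.96 and 6.05 CPM by depth, so 419 of its 553 WT UMIs came from cells of 32000 UMIs or more. Supt4a ran from 155 to 172 CPM over the WT depth classes and from 126 to 156 CPM over those of KO, and Mks1 from 4.51 to 5.02 CPM and from 4.22 to 5.0 CPM.

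RNA outside cells was read from barcodes too shallow to be cells. Those of over 100 and up to 300 UMIs had 0.0406 Tspoap1 UMIs each in KO (303 CPM), beside 9.81 UMIs in a mean KO cell (338 CPM over all KO cells). By value, 303 CPM lies above the megakaryocyte-like, erythroid-like, lymphoid-primed and ungated KO groups. In WT such barcodes had 0.00105 Mir142hg UMIs each (5.47 CPM), beside 0.235 UMIs in a mean cell (9.12 CPM over all WT cells). For Tspoap1 in WT they had 0.000538 UMIs each (2.81 CPM), beside 0.103 (4.0 CPM). Such barcodes are far shallower than cells, so counts per barcode differ through depth as well. In KO they held 0 Mir142hg UMIs in 46516 barcodes. No cell type known to lack Tspoap1 was at hand as a further reference.

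At the lower limit for cells, the values on both sides were as follows. WT barcodes of 7000 to under 8000 UMIs, just outside it, stood at 24.6 CPM of Mir142hg and those of 8000 to under 9000 UMIs, just inside, at 19.3 CPM, and KO barcodes stood at 0 CPM on both sides. For Tspoap1 the KO values were 448 CPM outside and 377 CPM inside, and the WT values 0 and 0.876 CPM. Supt4a stood at 191 and 178 CPM in WT and at 165 and 167 CPM in KO, and Mks1 at 3.89 and 5.25 CPM in WT and at 4.06 and 4.54 CPM in KO.

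Within WT, a cell with Mir142hg was not measurably more or less likely to carry Tspoap1. Of 491 thinned cells with Mir142hg, 6 had Tspoap1 (1.22%, 0.450% to 2.64%), and of the 4872 without it 105 had it (2.16%, 1.77% to 2.60%). The intervals overlap, and a difference of this size was not detectable at this depth. Supt4a was seen in 73.1% of cells with and 72.9% of cells without Mir142hg, and Mks1 in 4.07% and 3.55%.

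To place the members in their surroundings, all annotated genes within 1 Mb of the precursor were read out. Of 42 features 6 had no UMI, and 12 reached the floor of 10 CPM. Past 2-fold there were 1 higher gene, Tspoap1, and 1 lower gene, Msi2, an RNA-binding protein of stem and progenitor cells, 582 kb downstream (113 and 46.4 CPM, log2 ratio -1.29). The HSC-like gate held 20.1% of WT and 5.40% of KO cells, and its part in the Msi2 difference was not tested. Leaving out Tspoap1 and Supt4a, 6 of the 10 others were higher and 4 lower, with a median log2 ratio of 0.11 and a range from -1.29 to 0.39.

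Within 250 kb, no other gene at 10 CPM was past 2-fold. Mpo, myeloperoxidase of the neutrophil granules, starts 36.7 kb downstream of the precursor and had 1254 and 1646 CPM in the WT and the KO library (log2 ratio 0.39), and Gm11505, antisense to Mpo, had 67 and 68 UMIs. The granule-high gate held 2.76% of WT and 25.9% of KO cells, and its part in the Mpo difference was not tested. Dynll2, a dynein light chain 223 kb away, was at 66.1 and 80.5 CPM (0.28). Under the floor, Mtmr4 had 901 and 818 UMIs (-0.34), Sept4 342 and 151 UMIs (-1.38), 1110028F11Rik 174 and 135 UMIs (-0.56) and Rnf43 56 and 31 UMIs (-1.05, -1.73 to -0.39). The peroxidase gene Epx had 10 and 23 UMIs, Tex14 had 6 and 7, Hsf5 had 4 and 5, Lpo had 2 and 0, and the olfactory receptor genes Olfr462, Olfr463 and Olfr464 had none. Farther out, Ppm1e (98 and 250 UMIs, 1.15) and C030037D09Rik (484 and 193 UMIs, -1.52) were also past 2-fold under the floor, and both are named after their values were seen.

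**Figure D5:**
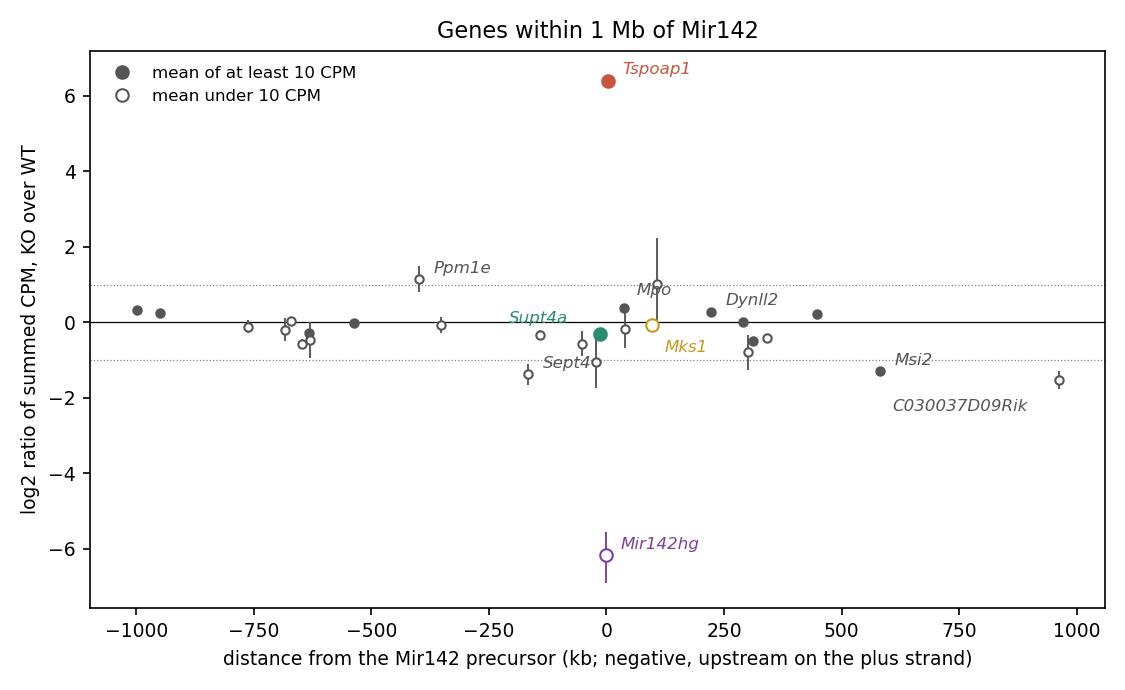
Log2 ratio of summed CPM, miR-142 KO CML over miR-142 WT CML, for the 30 features with at least 30 UMIs in all within 1 Mb of Mir142, by distance from the precursor in kb; filled points reach a mean of 10 CPM, open points do not, bars are exact 95% intervals and dotted lines mark 2-fold. Tspoap1 at 6.40 and Mir142hg at -6.17 stand apart, and the other points lie between -1.52 and 1.15.

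Genes that work with each member were read from fixed lists, beside a median log2 ratio of -0.08 over all genes compared and the shares of 1.02% higher and 1.18% lower past 2-fold. Of 17 genes that process or load microRNAs, 15 reached 10 CPM and 0 were past 2-fold, with a median of -0.24. By count the leading members were Ran (0.15), the GTPase of nuclear export, Srsf3 (0.02), Ddx5 (-0.32), a helicase of the Drosha complex, and Tnrc6b (-0.26), an Argonaute partner, and the lowest was Ago1 (-0.64), an Argonaute. Of 8 partners of TSPO, 6 reached 10 CPM and 0 were past 2-fold, with a median of 0.22. All 6 were higher by value, as were 38.1% of all genes compared (61.9% were lower), among them Tspo (0.67), the outer mitochondrial membrane protein that gives Tspoap1 its name, Dbi (0.64), its ligand, and the channels Vdac2 (0.31) and Vdac1 (0.13). Under the floor, Tspo2 had 131 and 36 UMIs (-2.06) and Star 112 and 82 UMIs (-0.65). None of the 6 other RIM and RIM-binding genes reached 10 CPM, and the largest count was that of Rims3, with 37 UMIs in each library.

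Of 11 genes of DSIF, NELF and P-TEFb, the complexes that hold and release paused polymerase, 10 reached 10 CPM and 0 were past 2-fold, with a median of -0.11. Supt4a stood at -0.30, its DSIF partner Supt5 at -0.05, the kinase Cdk9 at -0.08 and the NELF subunit Nelfe at 0.03, and with size factors in place of totals Supt5 and Cdk9 turn to the positive side and the median is -0.03. Of 15 genes of the cilium transition zone, 6 reached 10 CPM and 0 were past 2-fold. Their median of -0.06 turns to 0.02 with size factors, and the leading members by count were B9d2 (-0.07), which also turns positive with size factors, Tmem107 (0.11), Tmem216 (0.22) and Cep290 (-0.31). Under the floor, where Mks1 lies too, Cc2d2a (347 and 129 UMIs, -1.62, -1.93 to -1.33) and Tctn2 (160 and 70 UMIs, -1.39, -1.82 to -0.98) were past 2-fold lower.

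Among the 12 features that are named as microRNA hosts, none reached the floor of 10 CPM in the mean. Of the 5 with at least 30 UMIs, Mir142hg was the farthest apart. Mir99ahg, which hosts miR-99a and let-7c, had 1718 UMIs in WT and 371 in KO (log2 ratio -2.41), and Mir22hg had 162 and 451 UMIs (1.28). Mir155hg, with 847 and 677 UMIs, and Mir17hg, with 1462 and 1261 UMIs, stood at -0.52 and -0.41. Gate sizes differed between the libraries, and the part of cell make-up in these ratios was not tested.

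To describe the pattern of each member over the gated groups, the genes most like it in the same library were taken by Pearson r of log2(CPM + 1), over 8 groups in WT and 9 in KO. For Mir142hg in WT these were Macf1 (0.99), Tnfrsf13b (0.99), Sertad2 (0.99), Sugp1 (0.99) and Usp11 (0.98), of which the first 4 were highest in HSC-like cells. For Tspoap1 in KO they were Fgl2 (0.94), Emc1 (0.91), Zcchc10 (0.91), Kcnab2 (0.91) and Fam107b (0.91). Supt4a in WT was most like Cops2 (0.98), Ranbp2 (0.97), Zfp622 (0.97), Qars (0.96) and Klhdc10 (0.96), and Mks1 in WT was most like Limd2 (0.97), Ggta1 (0.97), H13 (0.96), Mpnd (0.94) and Xpc (0.94). The search covered 7571 genes for Mir142hg and 7220 for Tspoap1 with few groups each, and the r values are descriptions over groups of 1 library.

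Sites for the seeds of miR-142 were looked for in the annotated 3′ untranslated regions, on the transcript strand. The letters searched were ACACTAC for miR-142a-3p, ACTTTAT for miR-142a-5p and TTTATGG for miR-142b, and the last 2 share the letters TTTAT. None was present in the 1214 bases of Tspoap1, the 304 bases of Supt4a or the 778 bases of Mks1. Of 7327 genes at 10 CPM or more with such a region, 6.61%, 16% and 12.6% hold the 3 motifs in the same order. The absence of these letters says only that they are not in these regions.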

How the data were processed

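Bone marrow LSK cells were profiled with a 10x Genomics 3′ kit, 1 library per group, grouped by the labels. The authors used Cell Ranger and mm10 to count UMIs for each gene in each barcode (version 6.1.2 in the submitters' processing notes, 4 in the file headers), and the deposited values are raw counts for all barcodes, not normalized or filtered. The study kept barcodes over 300 UMIs and under 10% mitochondrial RNA. Here cells needed at least 8000 UMIs and under 10% mitochondrial UMIs, the latter limit removing 24 WT and 4 KO barcodes, and the cells kept held 138183896 and 158438757 UMIs. Doublets were kept, and an alternative left out cells passing more than 1 gate and the 5% deepest. Symbols were matched by identifier to GRCm38 (GENCODE), for 32158 of 32285.

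The members, gene lists and gates were chosen with earlier results of these data known. Named genes were the members, all genes within 250 kb, those to 1 Mb that were past 2-fold at 10 CPM, microRNA hosts with 30 UMIs, the leading counts of each list, and the 5 genes most like each member. Counts were summed per library or gate. Intervals were exact Poisson for levels, Clopper-Pearson for shares and conditional binomial for ratios. The ratio code was tested on simulated data. Python 3.11.15, numpy 2.4.6, scipy 1.17.1, pandas 2.3.3 and matplotlib 3.10.9 were used. Since a 3′ library counts transcript ends, levels are not compared between genes.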

Additional observations from a re-analysis of the deposited data

Results flagged for a closer look

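Barcodes of 1000 to under 8000 UMIs lie below the depth used for cells and enter no comparison. There Tspoap1 stood at 575 CPM in miR-142 KO CML (557 to 594, 3585 UMIs in 1253 barcodes), above the 338 CPM of KO cells, while the control library had 4 UMIs in 1295 barcodes (0.785 CPM). It was noted because it is a signal in data outside the main comparison that lies above the control. In these KO barcodes the list of innate lymphoid genes summed to 4220 CPM, beside 141 CPM in KO cells, and the basophil and mast cell list to 9228 CPM, beside 1698 CPM. In the WT barcodes of this depth the innate lymphoid list summed to 746 CPM, beside 52.9 CPM in WT cells. The basophil and mast cell list was higher there than in KO, at 18756 CPM, beside 1426 CPM in WT cells. The part of innate lymphoid, basophil and mast cells in the levels of Tspoap1 and Mir142hg at this depth was not tested. Mir142hg had 0 UMIs in the same KO barcodes and 22.4 CPM in the WT barcodes of this depth.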

How the results depend on the processing

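Of the values beyond counting error none changed direction. Of 70 recomputed values 45 stayed within the interval of the first value or, for counts of genes, which have no interval, within a fixed fold of the first count. The Mir142hg ratio ran from -6.74 to -5.80 and that of Tspoap1 from 6.24 to 6.93 (log2). Tspoap1 was 6.24 from 16000 UMIs up, 6.83 without likely doublets, where WT kept 277 of its 553 UMIs, and 6.93 as a mean over single cells. Supt4a was -0.25 without likely doublets, -0.22 with size factors, -0.24 as a mean over single cells and -0.23 at one composition of gates, where the antibody-secreting gate was left out for lack of KO cells. Differences in the share of cells (KO minus WT, in percentage points, first -9.03 for Mir142hg, 87.7 for Tspoap1, -6.56 for Supt4a and -0.209 for Mks1) depend on the depth used. Without thinning they were -18.7 for Mir142hg, 90.8 for Tspoap1, -1.24 for Supt4a and 1.02 for Mks1, whose sign turned and which lay outside the first interval. At 4000 UMIs they were -4.87 for Mir142hg and 68.9 for Tspoap1, in cells of 1000 UMIs or more thinned to 1000 they were -1.34, 30.2 and, for Supt4a, -2.29, and for at least 2 UMIs per cell -0.858 for Mir142hg and 68.6 for Tspoap1. Of all genes, 164 were past 2-fold, then 5865 with no filter but 1 UMI and 49 at a floor of 50 CPM. Within 1 Mb of Mir142 there were 2 of 12, or 1 of 4 within 250 kb. With no filter but 1 UMI there were 10 of 36 (27.8%), near the 28.2% of all 20793 genes so filtered. The highest over the lowest group was 1.63 (gates doubled) or 1.38 (cells outside S and G2/M phase) for Tspoap1 in KO, and 9.97 for Mks1 outside S and G2/M phase, whose lowest group held 1 UMI. Other causes were not tested. Sparse counts limit Mir142hg and Mks1 within groups. No paired analysis was possible because each group has 1 library and no test was run.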
